A study of Mus musculus with 48 samples.

Results

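Sh2d5, Dusp11 and uc012eok.1 are transcripts in which clusters of adenosines were read as edited in the brain, and their 94 listed positions are described here out of 48715 listed in all. Every position that the deposited files assign to these genes was taken, 53 in Sh2d5, 17 in Dusp11 and 24 in uc012eok.1. More than 100 reads in at least 1 library were found at 38, 12 and 14 of them, 64 in all, against 7339 positions of the whole panel. The genes were picked for their editing in the brain, so their brain levels and the comparison of genotypes in the brain are given as a description and without a test.

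Editing was measured by mmPCR-seq, a multiplexed PCR of cDNA on a microfluidic device with primers around known A-to-I sites, followed by deep sequencing. The 48 libraries were made from whole tissues (brain, heart, kidney, liver, small intestine, spleen, thymus and bone marrow, BM) of male C57BL/6 mice aged 12 weeks, with 3 independent biological replicates of each genotype in each tissue. Control animals were Adar1+/+ Ifih1-/- (written WT here) and mutant animals were Adar1E861A/E861A Ifih1-/- (written E861A), so that all of them lacked MDA5 throughout the body, and the E861A animals carried in every cell an ADAR1 protein that is made but cannot deaminate adenosine. ADAR2 was left intact in both, and liver, which the labels include, is missing from the written list of tissues that accompanies the samples.

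A-to-I editing is the deamination of adenosine to inosine in double-stranded RNA by the ADAR enzymes, and inosine is read as guanosine by the sequencer. ADAR1 is found in most tissues, whereas ADAR2 is best known for its activity in neurons, where it recodes glutamate receptor subunits. Many edited adenosines lie outside the coding sequence, in inverted repeats that fold back on each other, and MDA5 is the cytosolic sensor that detects such RNA when it stays unedited. Sh2d5 encodes an adaptor-like protein with an SH2 domain that is enriched in the brain. Dusp11 encodes a phosphatase of the dual-specificity family that removes phosphates from the 5′ end of RNA. The label uc012eok.1 is a transcript identifier within Tia1, the gene of an RNA-binding protein of stress granules and splicing.

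The adenosines of each transcript that were edited in the brain fell within 30 bases. The reference sequence of these windows is shown because the levels below are given for each adenosine of a window. Capitals mark the adenosines edited in the brain, each window is written 5′ to 3′ on the strand of the transcript, and the sequence is that of NCBIM37 (mm9), in which every one of the 94 positions is an adenosine on that strand.
Sh2d5, chr4:137815935-137815964, plus strand: gcAcgtctttAatcccaatggttAgaAggc
Dusp11, chr6:85905353-85905382, minus strand: tAgcccAggctgacttcAAActcAAgAttA
uc012eok.1, chr6:86364916-86364945, plus strand: cactctgactAccatAgtAAgttctagact

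In the GENCODE M1 annotation the Sh2d5 window lies in the 3′ UTR of Sh2d5 (ENSMUSG00000045349.9), which spans chr4:137815170-137817247, and also inside the annotated span of Kif17 on the same strand, so that reads of both genes cannot be told apart there. The Dusp11 window is intronic to the protein-coding transcript of Dusp11 (ENSMUSG00000030002.9) and lies in an exon of processed transcripts of the gene. One such exon spans chr6:85904956-85905394. The uc012eok.1 window lies inside Tia1 (ENSMUSG00000071337.4), in an exon at chr6:86363798-86367985 of a transcript with a retained intron, whereas the deposited files label its positions as 3′ UTR of uc012eok.1. Part of these windows is repeated in the genome. The 21 bases centred on each edited uc012eok.1 site occur 1 time, but those around Sh2d5 137815937 occur 229 times, those around Dusp11 85905381 occur 71 times with A and 6 times with G at the site, and those around Dusp11 85905376 occur 5 times with A and 1 time with G. The 21 bases around the Dusp11 lead site 85905365 occur 5 times, and those around Dusp11 85905364 and Sh2d5 137815945 occur 2 times each, all with A at the site. The stretch around Dusp11 85905353 has 1 copy with G at the site elsewhere. The part played by reads from such copies in the levels of these sites was not tested.

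The editing level is the percentage of reads at a position that carry G instead of the genomic A. A position counted as covered if both genotypes had 2 or more of 3 libraries above 100 reads in that tissue, and as edited if the level over the summed reads of these libraries exceeded 1% in WT, in E861A or in both. Summed coverage was 1861831 to 11394093 per library and 1949 to 6806 positions had more than 100 reads. The brain label was checked with the neuronal receptor genes on the panel (Gria2, Gria3, Gria4, Grik2, Htr2c and Gabra3), of whose positions at least 136 had more than 100 reads in each of the 6 brain libraries and at most 114 in each of the other 42. Expression of Adar1 and the mutated codon were not measured by this assay. Thymus WT replicate 3, small intestine WT replicate 2 and heart WT replicate 2 stood apart from their groups by a low mean level over the edited sites of their tissue (0.991%, 0.978% and 2.04%), and BM WT replicate 2 was the shallowest library.

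In the brain all 64 read positions were covered and 17 were edited, 4 in Sh2d5, 9 in Dusp11 and 4 in uc012eok.1. Each transcript had 1 lead adenosine, taken as its most edited site in WT: 51.3% ± 15.2 in Sh2d5, 36.2% ± 4.09 in Dusp11 and 83.8% ± 14.8 in uc012eok.1 (SD, n = 3). In E861A brain these sites still stood at 47.2% ± 7.67, 26.6% ± 4.46 and 63.0% ± 8.45 (SD, n = 3). Around them 3 patterns were read: adenosines edited in both genotypes, adenosines near 0 in E861A, and adenosines near 0 in WT and edited in E861A (2 in uc012eok.1 and Dusp11 85905353). Over the 17 sites the mean was lower in E861A at 12 and higher at 5, and 13 sites were above 1% in WT, 13 in E861A and 9 in both. At sites above this limit in 1 genotype only, the limit itself favoured a difference.

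**Figure D1:**
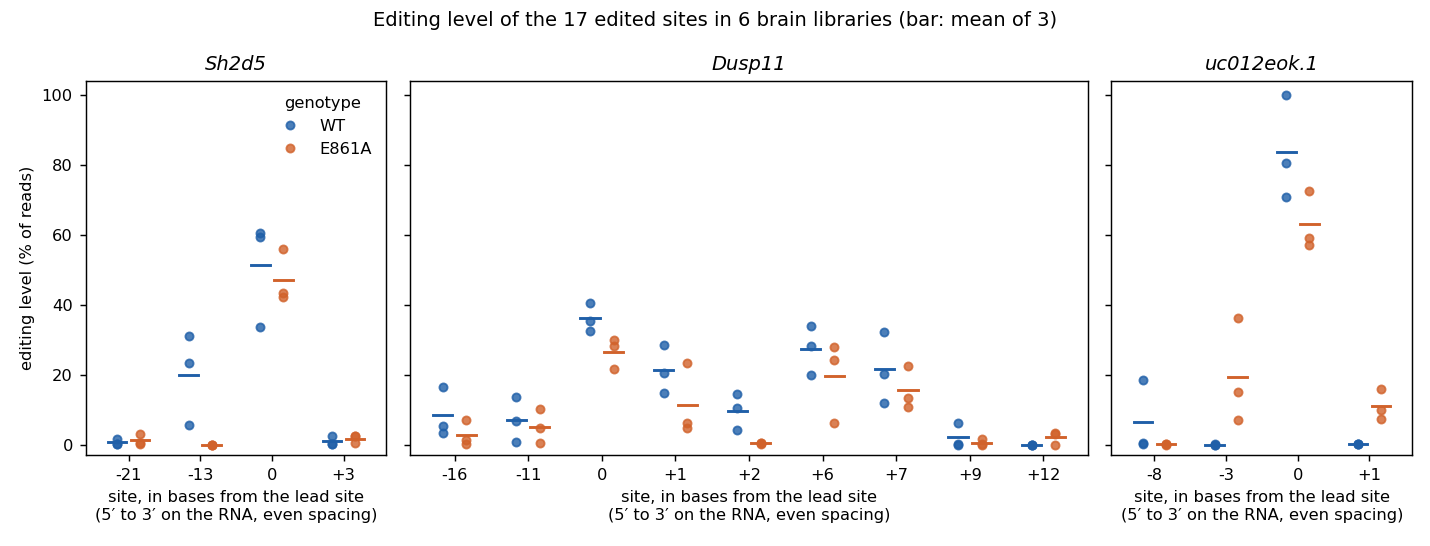
Editing level (% of reads) of each edited adenosine of Sh2d5, Dusp11 and uc012eok.1 in the 3 WT and 3 E861A brain libraries, arranged 5′ to 3′ and labelled by the distance in bases from the lead site (even spacing); points are libraries and bars are means. Sh2d5 site -13 and Dusp11 site +2 are near 0 in all E861A libraries, and uc012eok.1 sites -3 and +1 are near 0 in all WT libraries.

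Coverage of the 17 sites was 1091 to 4083 reads in each brain library, and the widest Wilson 95% interval had a half-width of 2.58 percentage points, below the smallest SD between replicates at any site with a mean above 10% (4.09 points). That SD is the spread between libraries, in which differences between animals and PCR sampling of few templates cannot be told apart. Since no molecular identifiers were used, reads can be PCR copies of one another, and intervals and limits cover counting error only. RNA came from whole tissue, and fewer cells of a type and less RNA per cell cannot be told apart in these levels.

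Of the 4 edited sites of Sh2d5, 2 had a mean above 10% in WT and 1 in E861A. At the lead site, position 137815958, the level was 33.7%, 60.7% and 59.5% in the WT libraries and 42.2%, 56.1% and 43.5% in the E861A libraries. The genotypes overlapped, and the mean difference of -4.09 points became 0.59 without WT replicate 2 and 0.024 without WT replicate 3. At position 137815945, 13 bases upstream, WT libraries stood at 5.79%, 31.1% and 23.4%, whereas the E861A libraries had 0 of 1701, 1 of 2581 and 0 of 1939 edited reads. A count of 0 allows a level of up to 0.176% and 0.155% in replicates 1 and 3. Here each E861A library was lower than each WT library, with a difference of -20.1 points that ranged from -27.2 to -14.6 when single libraries were left out. The site had passed the limit of 1% through WT alone, which favours that order, and nothing is read from it.

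The other 2 edited Sh2d5 sites were close to the 1% limit. Position 137815937, in the repeated stretch, was at 0.302%, 1.73% and 0.180% in WT and at 0.638%, 0.247% and 3.22% in E861A, so that 1 library of each genotype exceeded 1%. Position 137815961 was at 0.363%, 0.289% and 2.60% in WT and at 2.42%, 0.396% and 2.52% in E861A. Genotypes overlapped at both, and the sign of the difference at 137815937 turned without E861A replicate 3, to -0.294 points. The other 34 covered Sh2d5 positions had pooled levels of 0 to 0.378%.

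Dusp11 carried the longest cluster, 9 edited adenosines within 29 bases of each other, 8 of them with a lower mean in E861A. At the lead site, position 85905365, the level was 32.6%, 40.6% and 35.3% in WT and 21.6%, 28.2% and 30.1% in E861A. All E861A values were below all WT values, with a difference of -9.56 points. The adjacent adenosine at 85905364 was at 28.5%, 20.5% and 14.8% in WT and at 4.94%, 23.3% and 6.21% in E861A, where replicate 2 reached into the WT range. The third adenosine of the run, 85905363, was at 4.24%, 14.4% and 10.4% in WT and at 0.319%, 0.412% and 0.601% in E861A. Of these 3 adjacent adenosines the last one was below 1% in every E861A library, while the other 2 were still edited. The last one had passed the limit of 1% through WT alone, which favours a lower level in E861A.

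A second group of adenosines in Dusp11, 6 and 7 bases downstream of the lead site, was edited in all 6 brain libraries. Position 85905359 was at 33.9%, 28.3% and 19.9% in WT and at 6.34%, 28.1% and 24.2% in E861A. Position 85905358 was at 32.4%, 20.3% and 12.0% in WT and at 13.3%, 22.5% and 10.9% in E861A. The genotypes overlapped at both sites, whose mean differences were -7.81 and -5.98 points.

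At the remaining 4 Dusp11 sites libraries of the same genotype differed, and the genotypes overlapped. Position 85905381, in the repeated stretch, was at 16.6%, 5.46% and 3.49% in WT and at 0.222%, 7.05% and 1.43% in E861A. Position 85905376 was at 13.6%, 6.70% and 0.923% in WT and at 4.77%, 10.4% and 0.391% in E861A, so that replicate 3 of each genotype was below 1%. The sign of its difference of -1.89 points turned without WT replicate 1 and without E861A replicate 3 (1.36 points at most). Position 85905356 exceeded 1% in WT replicate 2 (6.15%) and in E861A replicate 3 (1.69%) and was at 0 to 0.161% in the other libraries, and without WT replicate 2 its difference turned to 0.536 points. Position 85905353 was at 0.0512%, 0 of 3978 reads and 0.0319% in WT and at 0 of 1772 reads, 3.00% and 3.44% in E861A, so that 2 of 3 E861A libraries, and 0 of 3 WT libraries, were edited. It is the only Dusp11 site whose mean was higher in E861A.

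In uc012eok.1 neighbours of the lead adenosine had higher levels in E861A brain libraries. The lead site, position 86364934, was at 70.8%, 100% and 80.7% in WT, where all 1222 reads of replicate 2 were edited (Wilson 95% interval from 99.7%), and at 59.1%, 72.7% and 57.2% in E861A. E861A replicate 2 lay above WT replicate 1, so the genotypes overlapped, and the difference of -20.8 points ranged from -27.3 to -12.8 when single libraries were left out. The adjacent adenosine, position 86364935, was at 0.136%, 0.164% and 0.146% in WT and at 7.24%, 16.0% and 10.1% in E861A. The adenosine 3 bases upstream, position 86364931, had 0 of 1291, 1 of 1091 and 0 of 1871 edited reads in WT and levels of 6.98%, 36.1% and 15.2% in E861A. At both neighbours all 3 E861A libraries lay above all 3 WT libraries, with differences of 10.9 and 19.4 points. Both had passed the limit of 1% through E861A alone, which favours that order, and nothing is read from it.

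The fourth edited site of uc012eok.1 was above 1% in 1 WT library. Position 86364926 was at 0.140%, 0.577% and 18.6% in WT and at 0.254%, 0.259% and 0.0581% in E861A. Its edited call rested on WT replicate 3, and without that library the difference of -6.26 points shrank to -0.168. E861A replicate 2 had the highest E861A level at all 4 uc012eok.1 sites and at 11 of the 17 sites, and E861A replicate 1 had it at none of the 17.

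Against the whole panel, 464 of 808 edited brain sites (57.4%) and 12 of these 17 (70.6%) had a lower mean in E861A. The median over sites of the mean level was 4.56% in WT and 2.99% in E861A for the panel, and 8.50% and 5.18% for the 17 sites. The highest E861A library was below the lowest WT library at 3 of the 17 sites (Sh2d5 137815945, Dusp11 85905363 and 85905365) and at 11.6% of the panel sites read in all 6 brain libraries, and the lowest E861A library was above the highest WT library at 2 (uc012eok.1 86364931 and 86364935) and at 6.66% of the panel. Since the members were chosen from this contrast, nothing is read from these shares. In the limma fit over the 808 sites 0% passed the threshold in either direction, and 56 had an unadjusted p below 0.05.

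**Figure D2:**
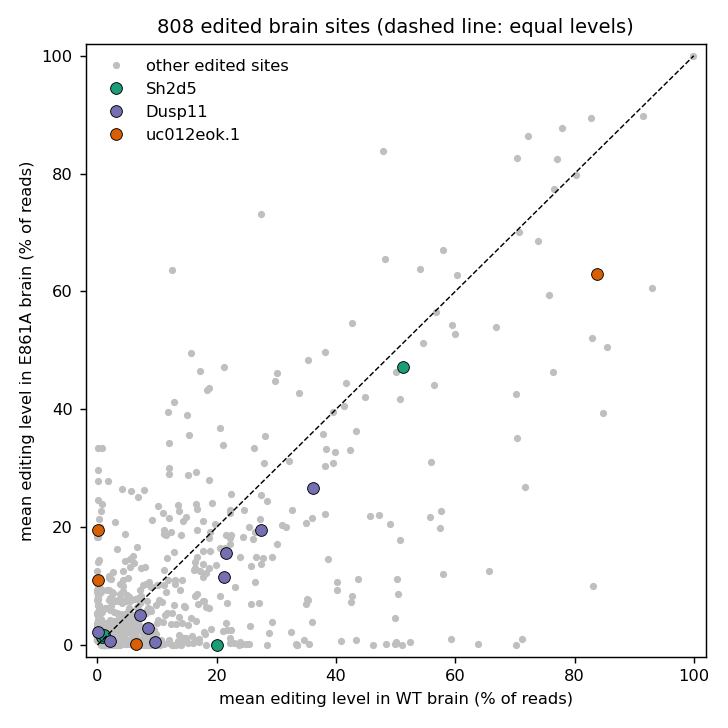
Mean editing level (% of reads) of each of 808 edited brain sites in WT (horizontal axis) and E861A (vertical axis), with n = 3 libraries per genotype (2 where 1 was not above 100 reads), and the sites of the 3 transcripts in colour; the dashed line marks equal levels. The lead sites of Dusp11 and uc012eok.1 lie below the line, and the 2 uc012eok.1 sites at the left edge are at 19.4% and 11.1% in E861A and at 0.031% and 0.149% in WT.

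The edited site nearest to the limit of 1% had a pooled level of 1.29% in its higher genotype (Sh2d5 137815937), and the highest of the 47 covered sites that were not edited had 0.549%. In single brain libraries those 47 sites reached 1.43% at most, at Dusp11 85905370, which lies inside the edited Dusp11 cluster. The highest was 0.890% in Sh2d5 and 0.691% in uc012eok.1. These sites were defined by pooled levels not above 1%, so their range is partly set by the limit and is no independent background.

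The base before an edited adenosine was T at 7 of the 17 edited sites and at 3 of the 47 covered sites that were not edited, and it was G at 1 of 17 and 14 of 47. Over all brain sites T preceded 34.2% of edited and 16.3% of other covered sites, and G preceded 11.0% and 26.5%. The lead sites sat in the triplets TAG (Sh2d5), CAA (Dusp11) and TAA (uc012eok.1). G followed the adenosine at 7 of the 17 edited sites (41.2%) and at 45.4% of all edited brain sites. In predicted structures of 1201 and 2001 bases around the uc012eok.1 window, computed with RNAfold, the lead adenosine faced an unpaired C at position 86365340, whereas the other 3 edited adenosines were each paired with T (U in the RNA). The opposite arm of this predicted hairpin is shown with that C in capitals.
uc012eok.1 opposite arm, chr6:86365326-86365355, plus strand: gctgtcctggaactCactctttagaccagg
In a window of 401 bases this pairing was not predicted, because the arm lies outside it. For Sh2d5 and Dusp11 the predicted partners of the edited adenosines changed with the length of the window and are not described.

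Across tissues the lead sites were highest in the brain, which is what the genes were chosen for. For Sh2d5 137815958 every library outside the brain with more than 100 reads was at or below 0.922%. Single brain libraries reached 0.890% at most at the Sh2d5 positions not edited in the brain. No order could be read among the groups outside the brain, since each overlapped its neighbour. Sh2d5 was not read above 100 reads at this site in liver, with 0 to 97 reads, and 4 of 6 small intestine and 5 of 6 kidney libraries were above 100 reads. None of the 4 brain-edited Sh2d5 sites exceeded 1% outside the brain but 137815961, in 1 of 34 libraries at 1.17%.

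For Dusp11 85905365 the order after brain WT (36.2%) and brain E861A (26.6%) was liver WT (5.87% ± 3.22), heart E861A (4.28% ± 7.10), heart WT (2.64% ± 2.40), kidney WT (1.41% ± 0.891) and liver E861A (1.22% ± 1.97), and the other 9 groups were at or below 0.294% (SD, n = 3). The 2 brain groups did not overlap with each other or with the liver, whereas from liver WT downwards each group overlapped the next.

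For uc012eok.1 86364934 the order was brain WT (83.8%), brain E861A (63.0%), liver WT (23.7% ± 21.1), liver E861A (18.5% ± 7.79), kidney E861A (18.5% ± 7.74) and kidney WT (17.3% ± 4.99), followed by thymus WT at 1.33% ± 1.20 (SD, n = 3). The 9 remaining groups were at or below 0.143%. The brain groups overlapped each other but not the liver, the 4 liver and kidney groups overlapped from one to the next, and kidney WT did not overlap thymus WT. In the heart 5 of 6 libraries were read, and WT replicate 3 had 0 reads.

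**Figure D3:**
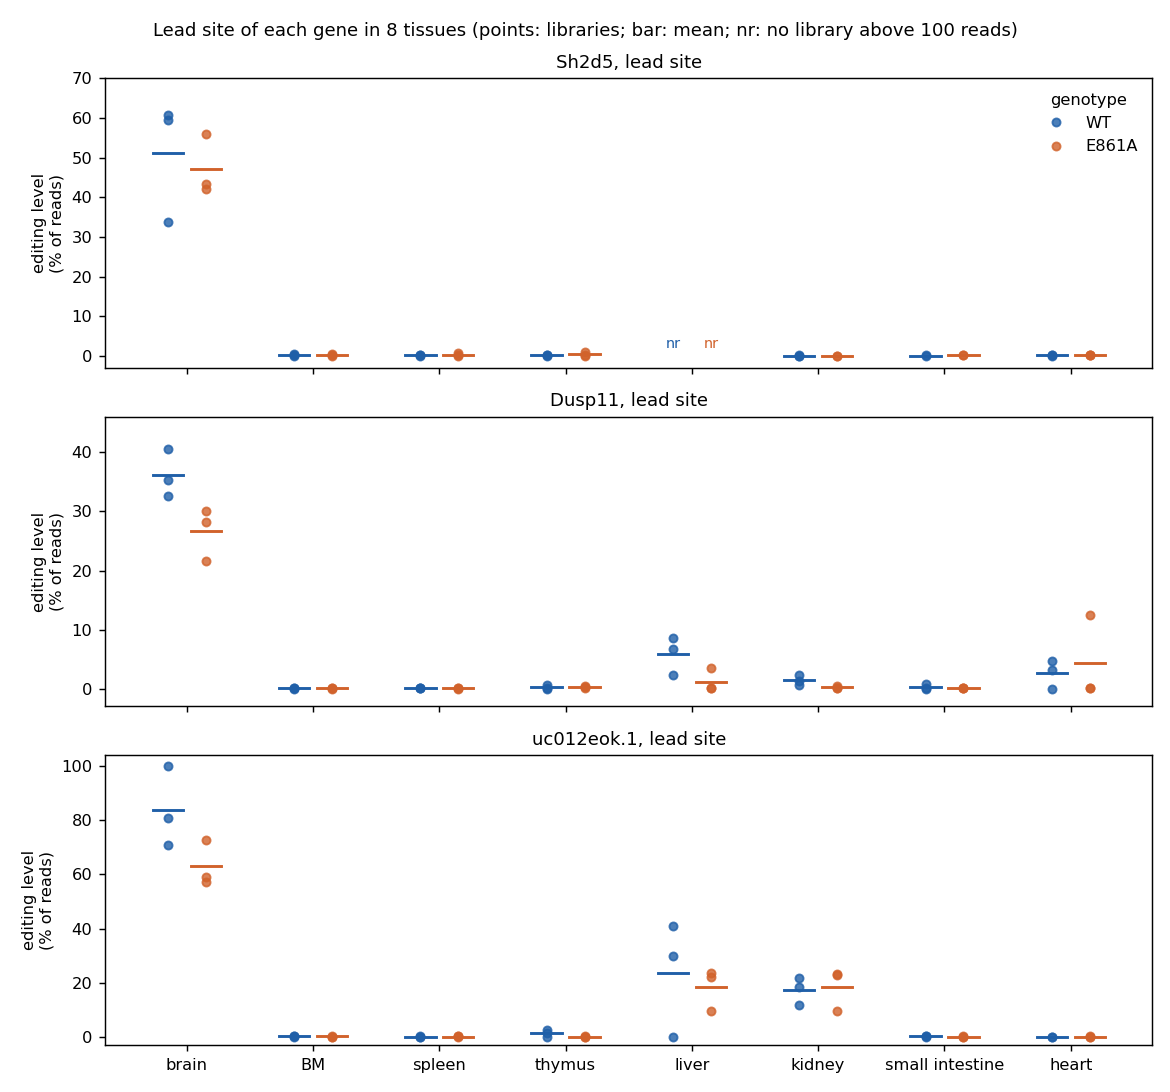
Editing level (% of reads) of the lead site of Sh2d5, Dusp11 and uc012eok.1 in 8 tissues, with WT in blue and E861A in orange; points are libraries with more than 100 reads and bars are means, and the vertical scales differ between panels. Outside the brain Sh2d5 stays below 1%, Dusp11 reaches 12.5% in 1 heart library, and uc012eok.1 is edited in liver and kidney of both genotypes.

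Over the 16 tissue and genotype groups, the sites of other genes with the pattern most like the Dusp11 lead site were in Ocel1 (r = 0.989), Echs1 (r = 0.989) and Mrpl43 (r = 0.989), out of 913 sites compared. For the uc012eok.1 lead site they were in Dclre1c (r = 0.987), Klhl24 (r = 0.982) and C330018D20Rik (r = 0.978). For the Sh2d5 lead site, over the 14 groups in which it was read, they were in Mfn1 (r = 0.999), Slc37a3 (r = 0.999) and Echs1 (r = 0.999). Among the 3 lead sites themselves r was 0.987 for Sh2d5 and Dusp11, 0.964 for Sh2d5 and uc012eok.1, and 0.952 for Dusp11 and uc012eok.1. These values of Pearson's r are descriptions over groups whose sites share libraries, and both brain groups were the highest for each of the 3 lead sites.

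Outside the brain the genotypes were tested, since the contrast of genotypes there was not used to choose the members, although their low levels in those tissues were known. Of 22 edited site and tissue pairs, at 11 different positions, 0 passed the limma threshold (adjusted p of 0.05) and 0 had an unadjusted p below 0.05; adjusted p ranged from 0.177 to 0.954. A quasi-binomial model of the reads also called 0. Of the 22 pairs 10 were above the limit of 1% in both genotypes, 6 in WT only and 6 in E861A only, so that the limit itself favoured a difference at the last 12. The pairs were 8 in heart, 7 in liver, 5 in kidney and 1 each in spleen and thymus, and 0 in BM and small intestine. Over all edited sites limma called 17.1% lower in E861A in kidney, 9.75% in liver, 8.45% in spleen and 0% in thymus and heart, and 0.704% higher in spleen and 0% in kidney, liver, thymus and heart.

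uc012eok.1 was the transcript with the highest levels outside the brain, with 13 single values above 10% out of 18 in all 3 transcripts. In kidney the lead site 86364934 was at 18.5%, 21.6% and 11.8% in WT and at 23.1%, 9.51% and 22.7% in E861A. The genotypes overlapped, and the log2 change on the ratio scale was 0.05 (95% interval -1.27 to 1.37, limma adjusted p = 0.938, alternatives 0.467 to 1). In liver it was at 0.0883%, 40.9% and 30.0% in WT and at 22.1%, 9.52% and 23.8% in E861A, with a log2 change of 0.57 (95% interval -3.37 to 4.51, limma adjusted p = 0.831, alternatives 0.351 to 1). The interval in liver leaves room for changes of several fold in either direction, and the mean level was 5.21 points lower in E861A although the log2 change was above 0, because WT replicate 1 was near 0. In thymus the site was at 2.47%, 1.46% and 0.0756% in WT and at 0.0299%, 0.151% and 0.0409% in E861A (log2 change -0.98, limma adjusted p = 0.350, alternatives 0.0202 to 0.768). The lowest of these came without replicate 3 of WT, the thymus library with the low mean level. The thymus pair had passed the limit of 1% through WT alone, which favours a lower level in E861A, and nothing is read from it.

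The neighbours of the uc012eok.1 lead site, which in the brain were edited in E861A and near 0 in WT, were above 1% in single libraries of liver and kidney, in both genotypes but for 86364931 in kidney, where this was so in WT libraries only. Position 86364931 was at 0.200%, 12.3% and 0.0436% in WT liver and at 23.4%, 0.0642% and 0.0813% in E861A liver. In kidney it was at 10.4%, 0 and 1.73% in WT and at 0.0426%, 0 and 0.0958% in E861A. Position 86364935 was at 1.83%, 0.0534% and 1.43% in WT kidney and at 0.0374%, 0.0942% and 22.5% in E861A kidney. In liver it was at 0.0880%, 0.252% and 5.63% in WT, and E861A libraries gave 0, 7.15% and 0.365%. At each of these the genotypes overlapped and 1 or 2 libraries carried the group mean. Position 86364926 stayed at or below 0.819% in all 41 libraries read outside the brain.

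In Dusp11, liver and kidney were read at low levels. At the lead site 85905365 liver WT libraries were at 6.75%, 8.55% and 2.30% and liver E861A libraries at 0.0390%, 3.49% and 0.119% (log2 change -1.92, 95% interval -4.07 to 0.23, limma adjusted p = 0.303, alternatives 0.0220 to 0.757). E861A replicate 2 lay above WT replicate 3. The other edited Dusp11 sites in liver overlapped between genotypes too. Position 85905359 was at 0.101%, 1.91% and 2.16% in WT and at 0, 3.63% and 7.02% in E861A (limma adjusted p = 0.666, alternatives 0.364 to 0.999). Position 85905358 was at 0.373%, 4.88% and 2.76% in WT and at 0, 6.01% and 0.236% in E861A (limma adjusted p = 0.701, alternatives 0.446 to 0.992). Position 85905376 was above 1% in E861A replicate 3 only, at 4.89%, with 0.0402% to 0.362% in the other liver libraries (limma adjusted p = 0.569, alternatives 0.371 to 0.800). The mean was thus lower in E861A at 2 of these 4 liver sites and higher at 2. In kidney the lead site was at 1.27%, 2.37% and 0.602% in WT and at 0.0339%, 0.529% and 0.0875% in E861A (limma adjusted p = 0.222, alternatives 0.0496 to 0.609). Position 85905359 was at 0.610%, 2.12% and 1.76% in WT kidney and at 0.0337%, 0.0883% and 0.308% in E861A kidney (limma adjusted p = 0.177, alternatives 0.0842 to 0.404). At these 2 kidney sites the E861A values were all lower than the WT values, but both had passed the limit of 1% through WT alone, which favours that order, and nothing is read from it. The same order was found at 43.5% of the kidney sites of the panel read in all 6 libraries. In spleen 85905359 was above 1% in WT replicate 3 only, at 7.61%, against 0.0692% and 0.149% in the other WT libraries and 0.0953% to 0.125% in E861A.

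In heart 2 E861A libraries were edited at different adenosines of the Dusp11 cluster. E861A replicate 1 was at 16.7% at 85905358, 16.8% at 85905359 and 18.5% at 85905364, but at 0.175% at the lead site 85905365. E861A replicate 2 was at 12.5% at the lead site and 5.15% at 85905376, and at or below 0.0963% at the 3 sites edited in replicate 1. E861A replicate 3 did not exceed 0.311% at any of these 5 sites. WT libraries were at 3.22%, 0 and 4.70% at the lead site, at 2.33%, 0.112% and 1.45% at 85905358 and at 1.598%, 0.0564% and 0.0525% at 85905359, so that WT replicates 1 and 3 were both above 1% at 85905365 and at 85905358. At 85905364 no WT library exceeded 0.171%. The SD of the 3 E861A libraries exceeded their mean at all 5 sites, and limma gave adjusted p-values of 0.566 to 0.954. At 85905376 all E861A libraries (0.401%, 5.15% and 0.311%) lay above all WT libraries (0.270%, 0.230% and 0.297%), as at 4% of heart sites of the panel. Only replicate 2 was above 1%, and the site had passed the limit through E861A alone, so nothing is read from this order.

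**Figure D4:**
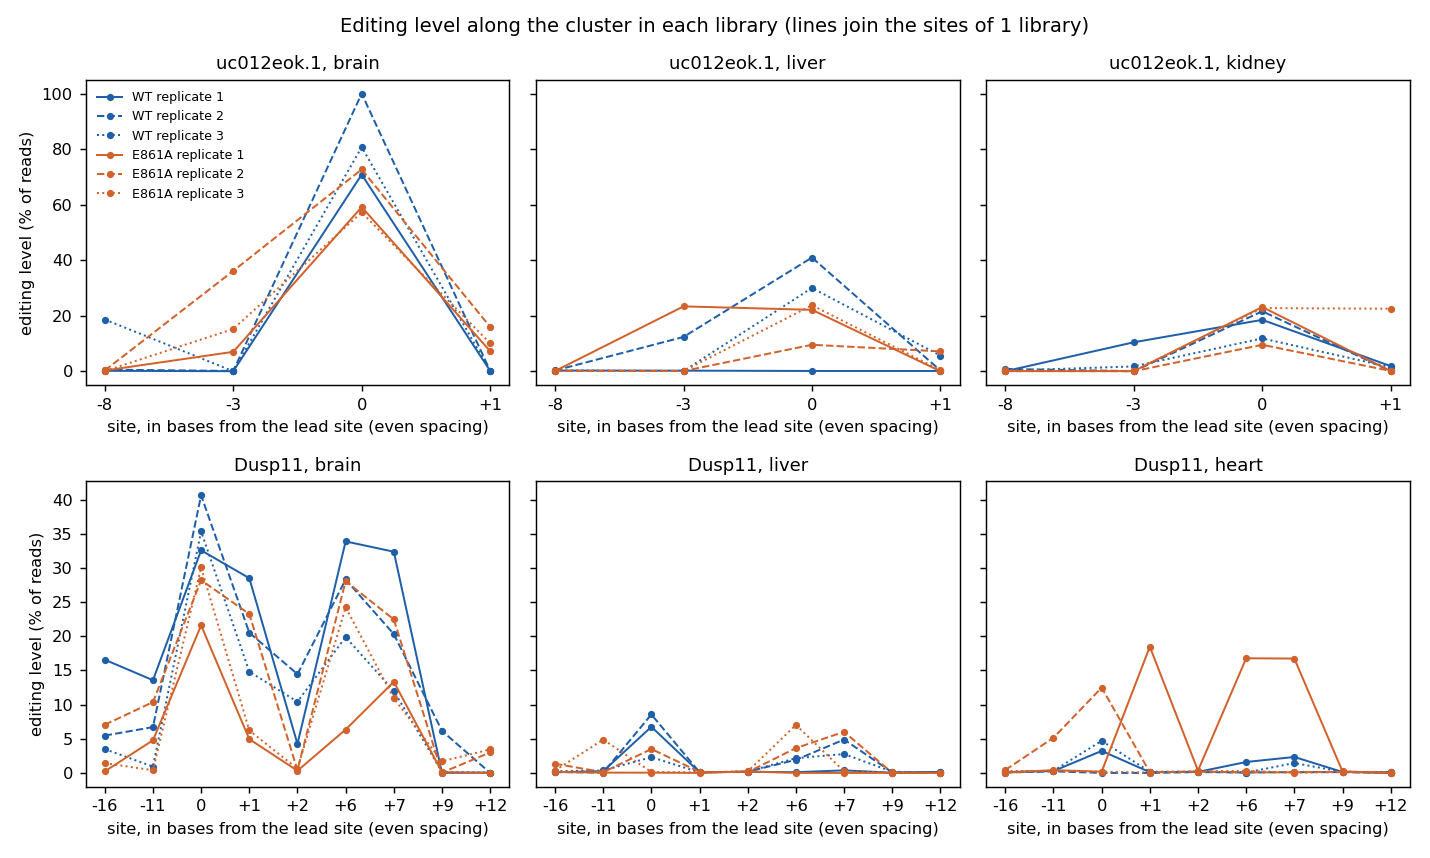
Editing level (% of reads) along the clusters of uc012eok.1 (upper row) and Dusp11 (lower row) in single libraries, in brain and in tissues outside it; each line joins the sites of 1 library, with WT in blue and E861A in orange, and sites are labelled by their distance in bases from the lead site. In the brain the lead site is the highest of each library but Dusp11 in WT replicate 1 (33.9% at +6 and 32.6% at the lead site), and in heart the 16.7% to 18.5% of E861A replicate 1 and the 12.5% of E861A replicate 2 in Dusp11 fall on different adenosines.

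Sh2d5 was edited outside the brain in the heart alone among the tissues read, and not at its brain sites. Position 137816086, 128 bases downstream of the brain lead site, was at 27.2% (315 of 1156 reads, Wilson 95% interval 24.8% to 29.9%) in WT replicate 3, at 0.169% and 0.350% in the other WT libraries and at 0, 0.292% and 0.466% in E861A. Position 137816092 was at 0.423%, 0.0700% and 0 in WT and at 2.41%, 1.76% and 0.295% in E861A, and 137815951 exceeded 1% in E861A replicate 3 only (3.38%). The genotypes overlapped at all 3, and limma gave an adjusted p of 0.566 at each (alternatives 0.00849 to 0.759 for 137816092). Each of the 3 had passed the limit of 1% in 1 genotype only, 137816086 in WT and the others in E861A. Copies of the sequence around these 3 sites elsewhere in the genome were not searched for.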

How the data were processed

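RNA of whole tissues was amplified by mmPCR-seq. For each library the authors deposited, per position, the counts of covering and edited reads and their fraction, with no normalization; the submitters' processing notes name STAR, SAMtools and mm9, without versions. Levels were recomputed from the deposited counts, leaving out libraries at or below 100 reads. The 3 transcripts, site lists and tests were chosen with earlier results of these data known. The rule named all brain-edited sites and, outside the brain, those called, the highest edited site per gene and tissue, and sites with 1 library above 10%; the rest of the 22 edited pairs outside the brain were added after their values were seen. Outside the brain, genotypes were compared per tissue over all edited sites with limma 3.58.1 (lmFit and trended eBayes in R 4.3.3), p-values being adjusted by the Benjamini-Hochberg method. The tested value was the log2 ratio of edited to unedited fraction after 0.01 had been added to each, which makes changes of low levels look smaller. Each tissue was fitted with its own 6 libraries and replicates were weighted equally. The fit was tested on simulated data of BM and kidney only, in which the lowered sites changed by far more than the pairs tested here. It does not show how often smaller changes would be missed. Sequences came from NCBIM37 and structures from RNAfold 2.7.2. Alternatives covered coverage, edited limit, offset, scale, test, samples in the fit, the replicate number as a block and single libraries left out. RNA-seq, qPCR and the study's summary tables were not used here.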

Additional observations from a re-analysis of the deposited data

How the results depend on the processing

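The 0 calls outside the brain stayed 0 under 12 of 13 alternatives (a quasi-binomial model, the study's F test criterion, limma without a trend, untransformed levels, offsets of 0.05 or 0.001, no edited limit or one of 0.05, minimum coverage of 500 or 50 reads, all 3 replicates covered, and the replicate block). The F test criterion required a difference of at least 0.05 in the edited fraction, so it could not call pairs below that. The calls became 2 with all 48 libraries in 1 fit: Dusp11 85905365 lower in E861A liver (adjusted p = 0.0220 in limma) and Sh2d5 137816092 higher in E861A heart (adjusted p = 0.00849 in limma). The heart pair had passed the limit of 1% through E861A alone, which favours that direction, so nothing is read from its call. With single replicates left out the count was 0 to 2, and the 2 came without WT replicate 3 (uc012eok.1 86364934 in thymus, adjusted p = 0.0202 in limma, and Dusp11 85905365 in kidney, adjusted p = 0.0496). Both pairs had passed the limit of 1% through WT alone, which favours a lower level in E861A, so nothing is read from these calls. The numbers were not taken to pair the samples: of 24 same-numbered pairs, deviations from the group means correlated above 0.1 in 2 (range -0.119 to 0.238), and the replicate block gave 0 calls. The 22 edited pairs outside the brain became 8 with a limit of 0.05 and were 20 to 23 with single replicates left out. The 17 brain sites became 13 with that limit and were 16 to 17, and the 12 lower in E861A were 10 to 12, with single replicates left out. Of the 17 brain differences 13 never turned sign when a library was left out. The cause of these shifts was not tested. With 3 libraries per genotype and no molecular identifiers, spread between animals and PCR sampling of few templates cannot be told apart.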
